A study of Mus musculus with 2 samples.

Results

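Red blood cell miRNAs in mouse heart are described here through 3 genes, Mir451a, Mir144 and Mir486, of the 2202 miRNA genes in the count tables. The genes were chosen by name and matched through GENCODE M21 symbols, and all 3 had reads in both libraries. Short RNAs were sequenced from total RNA of heart tissue of male B6CASTF1/J mice, labelled as 36 days old, although another label puts that number in months. B6CASTF1/J mice are first-generation offspring of a cross of B6 with CAST, and no treatment, transgene or second condition was labelled. The 2 libraries form 1 group and carry biological replicate numbers 1 and 2 with differently numbered males. As 1 donor record is given for both, n = 2 stands for samples whose spread may be technical. Whether blood was rinsed from the hearts is not given in the sources used here.

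Library 1 held 5479149 reads, of which 1999362 fell on the sense strand of a miRNA gene, and library 2 held 4893073, of which 1862526 did so. A further 41.5% and 42.9% of reads mapped to several places and were given to no gene. Levels are counts per 1000000 assigned sense-strand reads (CPM), summed over a whole hairpin, so that the mature arms are not separated. Intervals are exact 95% Clopper-Pearson intervals and cover counting error only, since reads amplified by PCR without molecular identifiers are not independent molecules. The heart label was checked against Mir208a, a miRNA carried in a cardiac myosin gene, which stood at 7004 CPM in library 1 and 3393 CPM in library 2. The other genes on the cardiac muscle list were lower. Mir499 averaged 2239 CPM, Mir208b 127 and Mir1a-2 56.1. Mir1a-1, Mir133a-1 and Mir133a-2 averaged only 2.32, 2.06 and 2.04 CPM, and the reason was not tested. These counts leave out reads that mapped to several places, so they need not show the level of a mature miRNA.

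Mir144 and Mir451a lie side by side and are known to be made from 1 primary transcript that the factor GATA1 drives in maturing red cells. miR-451a is among the most abundant miRNAs of red cells, which keep their miRNAs after losing the nucleus, and it is matured by cleavage in Argonaute 2 and not by Dicer. miR-144 is known to act on the oxidative stress response of red cells. Mir486 sits in Ank1, the gene of ankyrin-1 of the red cell membrane, and miR-486 is known from red cells and also from striated muscle. This cluster has been studied in heart muscle cells as well, so none of the 3 genes marks red cells alone.

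The hairpins of the Mir144 and Mir451a cluster are shown because they carry the contrast between its members. They were taken from RefSeq (GRCm38.p6), run 5′ to 3′ on the plus strand of chromosome 11, and have the mature miRNA in capitals. Of the 3 genes, 2 matched the RefSeq table, all but Mir486.
Mir144 hairpin: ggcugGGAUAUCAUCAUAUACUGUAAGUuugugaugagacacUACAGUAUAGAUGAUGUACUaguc
Mir451a hairpin: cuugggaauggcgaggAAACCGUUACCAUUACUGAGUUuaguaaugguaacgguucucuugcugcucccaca
In the Mir144 hairpin, of 66 nt, miR-144-5p takes positions 6 to 28 and miR-144-3p takes positions 43 to 62, 1 on each side of the predicted loop at positions 31 to 36. In the Mir451a hairpin, of 72 nt, the only listed mature miRNA takes positions 17 to 38 and runs through the predicted loop at positions 35 to 38. The minimum free energy structure had 27 base pairs and an energy of -28.6 kcal/mol for Mir144, and 30 base pairs and -43.3 kcal/mol for Mir451a.

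The mature sequences are shown with the seed, bases 2 to 8, in capitals, because the seed sets which targets a miRNA can pair with.
mmu-miR-451a: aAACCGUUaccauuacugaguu
mmu-miR-144-5p: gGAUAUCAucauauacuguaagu
mmu-miR-144-3p: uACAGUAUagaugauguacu
mmu-miR-101a-3p: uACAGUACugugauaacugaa
Among 1738 mature mouse sequences in the RefSeq table, the seeds of miR-451a, miR-144-5p and miR-144-3p each occurred 1 time. Bases 2 to 7 of miR-144-3p also occurred in miR-101a-3p and in no other listed miRNA, so that sequence is set beside it. Mir101a was at 44.5 CPM in library 1 and 85.9 CPM in library 2, under Mir144 in both. The hairpin Mir451b, annotated opposite Mir451a, came closest to mature miR-451a among 1004 other hairpins and differed from it at 4 positions or more without gaps. For miR-144-3p the closest other hairpin differed at 5 positions, and for miR-144-5p at 8.

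The 3 genes lie at 2 loci of the mm10 assembly. Mir144 (ENSMUSG00000065401.1) occupies 78073005 to 78073070 on the plus strand of chromosome 11. Mir451a (ENSMUSG00000070065.1) follows at 78073170 to 78073241 on the same strand, 99 bases further on, and no annotated host gene spans either of them. The nearest protein-coding gene, Eral1, lies on the minus strand, with its nearer end 134 bases past Mir451a. Mir486 (ENSMUSG00000070084.3) spans 23142555 to 23142682 on the plus strand of chromosome 8, within Ank1 and overlapping none of its annotated exons. On the other strand it also falls in an intron of the non-coding gene Gm15816.

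Each of Mir451a and Mir486 has a miRNA gene opposite it, and the strand of a read therefore decides its count. Mir451a had 2230 sense reads in library 1 and 1246 in library 2, with 0 antisense reads in both. Mir451b covers the same 72 bases on the minus strand and had 0 sense reads. A count of 0 leaves room for 3 reads, or 1.5 and 1.61 CPM in libraries 1 and 2. Mir486 had 2386 sense reads in library 1 and 2163 in library 2, with 79 and 64 antisense reads. The antisense reads were the sense reads of Mir3107, which overlaps 90 bases of Mir486, at 39.5 and 34.4 CPM. Mir486 exceeded Mir3107 by 30.2-fold in library 1 (95% interval 24.1 to 38.3) and 33.8-fold in library 2 (26.4 to 44.0). Reads that matched both strands equally well would be counted for neither. The level of Mir486, and its ranks, shares and ratios here and below, therefore describe uniquely placed reads only. Whether mature miR-486 also fits Mir3107 was not checked, as Mir486 did not match the RefSeq table.

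**Figure D1:**
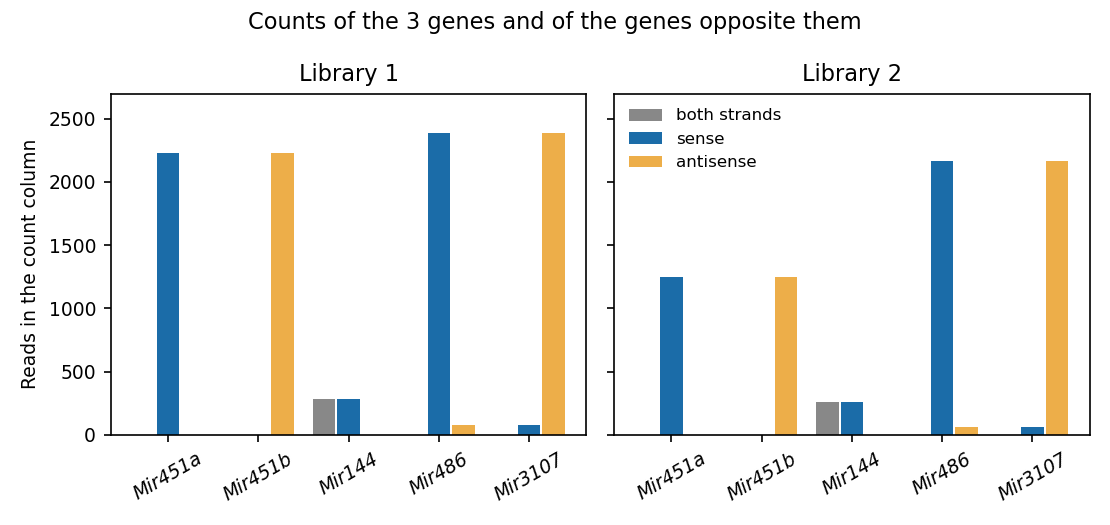
Reads of Mir451a, Mir144, Mir486 and of the genes opposite them, Mir451b and Mir3107, in the 3 count columns of each library (bars: grey for both strands together, blue for sense, yellow for antisense; y axis in reads). With both strands together, Mir144 kept its 286 and 260 reads, while Mir451a and Mir486 were at 0 and their sense bars reach 2230 and 2386 in library 1.

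In the column that counts both strands together, Mir451a and Mir486 were at 0 in both libraries, and Mir144, with no gene opposite it, kept all of its 286 and 260 reads. The reads of the Mir451a and Mir486 loci, 4695 in library 1 and 3473 in library 2, made up 1.08% and 0.770% of the reads counted as ambiguous there. The sense column was used for every level below.

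Mir486 had the highest level of the 3 genes, Mir451a was next and Mir144 was lowest in both libraries. Mir486 stood at 1193 CPM in library 1 (95% interval 1146 to 1242) and 1161 CPM in library 2 (1113 to 1211), a mean of 1177 ± 22.7 (SD, n = 2). Mir451a stood at 1115 CPM in library 1 (1070 to 1163) and 669 CPM in library 2 (632 to 707), a mean of 892 ± 316. Mir144 stood at 143 CPM in library 1 (127 to 161) and 140 CPM in library 2 (123 to 158), a mean of 141 ± 2.44. The SD was 35.4% of the mean for Mir451a, 1.93% for Mir486 and 1.73% for Mir144, so the libraries were close for 2 genes and apart for Mir451a.

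**Figure D2:**
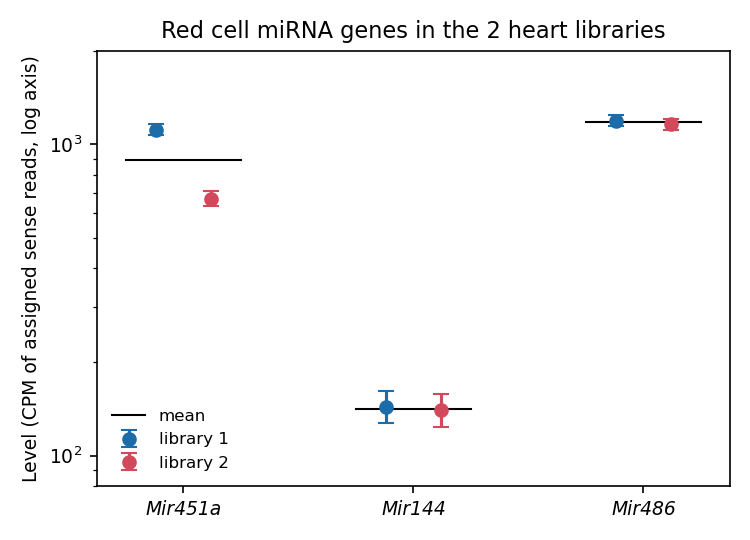
Level of Mir451a, Mir144 and Mir486 in library 1 (blue) and library 2 (red), in CPM of assigned sense reads on a log axis, with exact 95% intervals as bars and the mean of both libraries as a black line. The 2 points of Mir451a, at 1115 and 669 CPM, stand apart, and those of Mir144 and Mir486 overlap within their intervals.

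By mean level, Mir486 ranked 63rd, Mir451a 74th and Mir144 126th of the 2202 genes, of which 652 had any reads. Mir451a moved from rank 70 in library 1 to rank 80 in library 2, and 13 other genes had a mean between its 2 values. Mir486 kept ranks 65 and 62, and Mir144 ranks 127 and 125, with 0 other gene means inside their ranges. Just above Mir451a in mean level were Mir497 (958 ± 308 CPM), Mir484 (935 ± 194) and Mir30c-2 (932 ± 6.03), and just below it were Mir425 (816 ± 11.5), Mir467d (814 ± 126) and Mir185 (785 ± 898). Its difference from each of these 6 was within its own spread. Mir486 lay between Mir150 (1289 ± 284 CPM), known from lymphocytes, and Mir106b (1160 ± 191), and its order against these neighbours was within their spread. Above Mir150 came Mir455 (1296 ± 24.4) and Mir10a (1324 ± 74.3), and both exceeded Mir486 in each library. Below Mir106b came Mir20a (1123 ± 87.6), under Mir486 in each library, and Mir181d (1093 ± 397), whose range spanned that of Mir486. Mir144 lay between Mir501 (147 ± 32.6 CPM) and Mir130b (137 ± 73.0), with Mir222, Mir337 and Mir1843a nearby, and each of these 5 had a range wider than its distance from Mir144. Mir101b, the next below, was at 129 ± 3.06 CPM and under Mir144 in each library.

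Together the 3 genes took 0.245% of assigned reads in library 1 (0.238 to 0.252) and 0.197% in library 2 (0.191 to 0.203). Mir486 gave 48.7% of their reads in library 1 (47.3 to 50.1) and 59.0% in library 2 (57.3 to 60.6). Mir451a gave 45.5% (44.1 to 46.9) and 33.96% (32.4 to 35.5), and Mir144 gave 5.83% (5.19 to 6.53) and 7.09% (6.28 to 7.97). Their summed level was 482 CPM lower in library 2, of which Mir451a accounted for 446 CPM.

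Ratios between the genes inside a library do not depend on how libraries are scaled. Mir451a exceeded Mir144, its neighbour in the same transcript, by 7.80-fold in library 1 (95% interval 6.89 to 8.85) and 4.79-fold in library 2 (4.19 to 5.50). The 2 intervals, which cover counting error only, do not overlap. Mir486 to Mir144 was 8.34 in library 1 (7.38 to 9.46) and 8.32 in library 2 (7.31 to 9.50), nearly equal although the genes lie on different chromosomes. Mir486 to Mir451a was 1.07 in library 1 (1.01 to 1.13) and 1.74 in library 2 (1.62 to 1.86), and both intervals lie above 1.

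The libraries were then compared for each of 344 genes with 10 or more reads in all, by an exact two-sided conditional binomial test with Benjamini-Hochberg adjustment over all 344. This test compares 2 libraries on read counts and says nothing about conditions or about the spread between animals. In bulk tissue, fewer cells of a type and less RNA per cell cannot be told apart. By adjusted p under 0.05, 54.1% of tested genes differed in either direction, 36.3% being higher in library 1 and 17.7% in library 2. Under the further criterion of a 2-fold or larger ratio, 17.2% differed. Of the 3 red cell genes, 1 passed the adjusted p, and 0 passed with the 2-fold criterion. The calls over all genes split into 125 higher in library 1 and 61 higher in library 2, and with edgeR's TMM scaling into 80 and 92. A call by adjusted p is thus common in these libraries and sets no gene apart.

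Mir451a was 1.67-fold higher in library 1, a log2 ratio of library 2 over library 1 of -0.74 (95% interval -0.84 to -0.64), with an adjusted p of 4.06e-48 in the exact test. Mir144 had a log2 ratio of -0.03 (-0.28 to 0.21) and an adjusted p of 0.871 in the exact test. Mir486 had a log2 ratio of -0.04 (-0.12 to 0.05) and an adjusted p of 0.491 in the exact test. Neither interval reaches the ratio of Mir451a. The median log2 ratio of all tested genes was -0.19, and against it Mir451a lay at -0.55, Mir144 at 0.15 and Mir486 at 0.15. With edgeR's TMM scaling, which removes that shift, Mir451a stayed lower in library 2 at -0.55 (exact test, adjusted p = 8.10e-27). Mir144 then turned to 0.15 (exact test, adjusted p = 0.325), and Mir486 turned to 0.15 and passed as higher in library 2 (exact test, adjusted p = 0.00126).

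**Figure D3:**
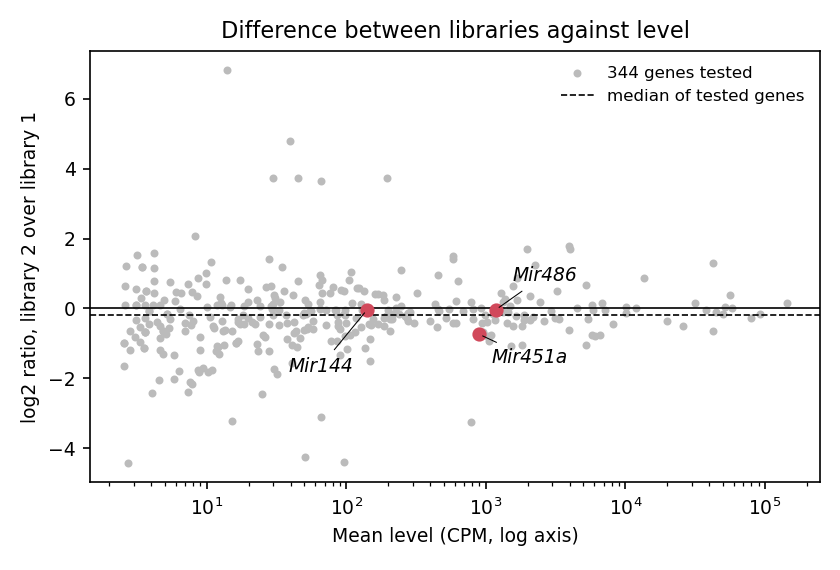
Log2 ratio of library 2 over library 1 against mean level in CPM (log axis) for 344 tested genes (grey), with the 3 red cell genes in red, 0 as a solid line and the median of tested genes as a dashed line. Mir451a lies at -0.74, while Mir144 at -0.03 and Mir486 at -0.04 lie between the median, -0.19, and 0.

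Against other well-covered genes, the place of Mir144 and Mir486 depended on the scaling. Over the 141 genes that averaged 100 CPM or more, the median absolute log2 ratio was 0.34. A larger absolute ratio than that of Mir451a was found in 30 of them, or 21.3%. A smaller absolute ratio than that of Mir144 was found in 8, and a smaller one than that of Mir486 in 12. With TMM scaling, the median was 0.28, 42 genes had a larger absolute ratio than Mir451a, 43 had a smaller one than Mir144 and 40 a smaller one than Mir486. The genes whose ratio lay nearest to that of Mir451a were Mir93 (-0.75), Mir30e (-0.75) and Mir181d (-0.76). Nearest to Mir144 were Mir143 (-0.04), known from smooth muscle, Mir455 (-0.04) and Mir486 itself. Nearest to Mir486 were Mir455, Mir143 and Mirlet7f-2 (-0.04). These likenesses rest on 2 libraries and describe a single ratio each.

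The divergence of Mir451a and Mir144 was set beside other clusters, a comparison chosen after the values were seen. Among genes at 100 CPM or more, 36 pairs of neighbours lay on 1 strand within 10 kb of each other. The log2 ratios of Mir451a and Mir144 differed by 0.70, the 10th largest difference, against a median of 0.33. The largest difference was 1.70, between Mir15a and Mir16-1, and Mir23a and Mir27a differed by 1.51. In level, the pair differed by a mean of 2.61 on the log2 scale, the 18th largest gap, against a median of 2.50. Some genes stand in more than 1 pair, so the pairs are not independent. Several loci, Mir16-1 among them, have a mature sequence found in another hairpin, so their counts and differences are uncertain.

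**Figure D4:**
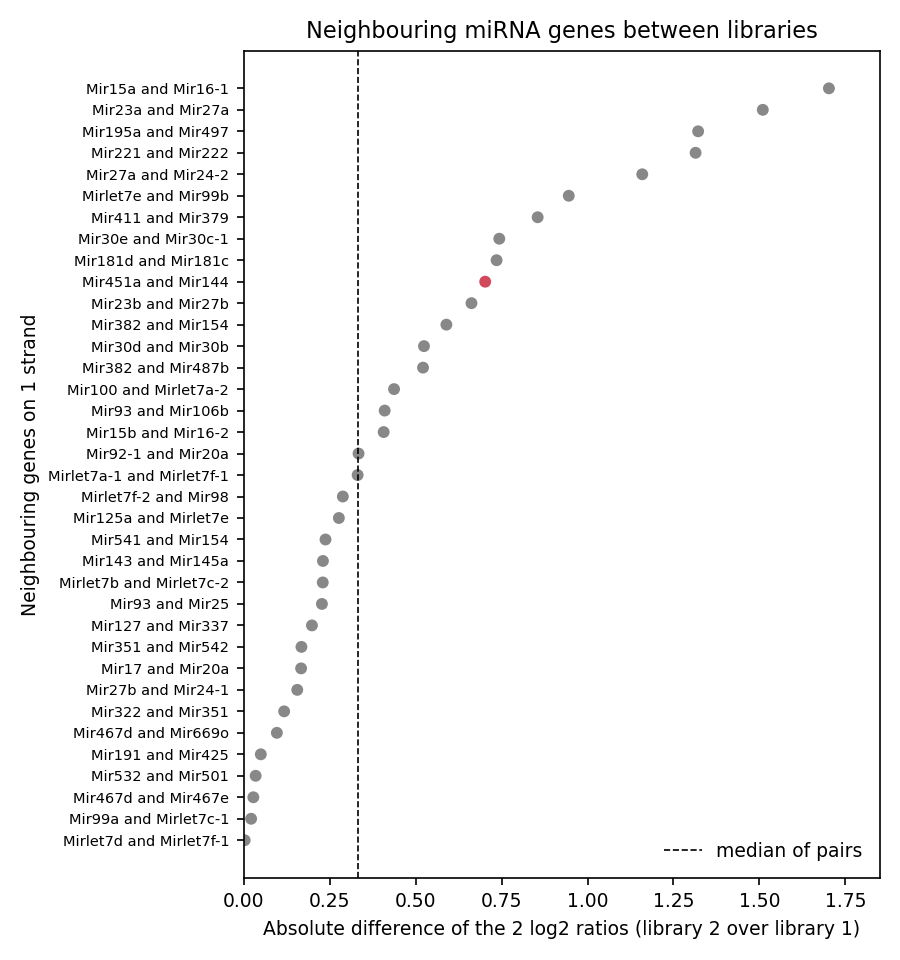
Absolute difference between the log2 ratios (library 2 over library 1) of 2 neighbouring miRNA genes on 1 strand, for 36 pairs, each row 1 pair, with the median as a dashed line. Mir451a and Mir144, in red, lie at 0.70, and 9 pairs lie further to the right.

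Other miRNAs known from maturing or mature red cells were called in both directions. Of the 16 on this list, 15 were tested, and 8 were higher in library 1, 5 were higher in library 2 and 2 did not pass the adjusted p of the exact test. Over all tested genes, 36.3% were called higher in library 1 and 17.7% higher in library 2. Their median log2 ratio was -0.34, against -0.19 over all tested genes. With TMM scaling their median was -0.15, against a median near 0 over all tested genes. The split was again 8 and 5, against 80 and 92 over all 344 tested genes. The list took 4.16% of assigned reads in library 1 and 7.24% in library 2, mostly through Mir22, a miRNA found in many tissues, at 24473 and 60488 CPM. Without Mir22 it took 1.72% and 1.20%.

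Higher in library 1, as Mir451a was, were the neighbours Mir93 (7212 and 4297 CPM), Mir106b (1295 and 1025 CPM) and Mir25 (527 and 367 CPM), which share a cluster inside Mcm7. Mir15a was at 1380 and 729 CPM and Mir185 at 1420 and 150 CPM. Mir16-1, the neighbour of Mir15a, went the other way, at 463 CPM in library 1 and 796 CPM in library 2. Mir15b (2284 and 2598 CPM), Mir16-2 (98.5 and 149 CPM) and the hypoxia-responsive Mir210 (159 and 209 CPM) were also higher in library 2. The copies Mir16-1 and Mir16-2, and the copies of miR-92a, Mir92-1 (2108 and 1497 CPM) and Mir92-2 (143 and 89.7 CPM), have a mature sequence found in another hairpin, so their counts are uncertain. Mir182 (61.0 and 20.4 CPM), Mir183 (18.5 and 20.9 CPM), Mir363 (5.00 and 6.98 CPM) and Mir96, with 1 and 2 reads, were low.

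miRNAs known to decline as red cells mature were well represented. Of 5 tested, 3 were higher in library 1, against 36.3% of all tested genes, and 1 was higher in library 2, against 17.7%. Their median log2 ratio was -0.18, against -0.19 over all tested genes. With TMM scaling the split was 2 and 1, against 80 and 92 over all 344 tested genes. Mir155 stood at 3689 and 2993 CPM and Mir221 at 1997 and 1765 CPM, both above Mir451a in each library. Mir222 was higher in library 1, at 218 CPM against 77.3 CPM. Mir223, a myeloid miRNA, had 229 and 204 CPM (exact test, adjusted p = 0.163), and Mir150 had 1088 and 1489 CPM. With TMM scaling, Mir221 and Mir223 turned to log2 ratios of 0.01 (exact test, adjusted p = 0.834) and 0.02 (exact test, adjusted p = 0.889).

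White cell miRNAs are set beside the red cell values, since blood held in the heart carries both. The leukocyte list shares Mir223, Mir150 and Mir155 with the list above. It took 0.873% of assigned reads in library 1 and 0.912% in library 2, more than the 3 red cell genes in each. Its largest parts came from Mir155, Mir146 (1834 and 2345 CPM) and Mir342 (1535 and 1827 CPM). Mir142 (351 and 264 CPM) and Mir223 were each under Mir451a. Which cells of the heart gave these reads was not tested. Of the list's 7 genes, 6 were tested, with 2 higher in library 1 and 3 higher in library 2, both by the main and by TMM scaling. Over all tested genes, 36.3% and 17.7% were called in these directions by the main scaling. By TMM scaling, 80 and 92 of all 344 were. The list's median log2 ratio was 0.04, against -0.19 over all tested genes, and 0.23 with TMM scaling, where the median of all is near 0. Mir451a exceeded Mir142, a miRNA of blood cells, by 3.18-fold in library 1 (95% interval 2.92 to 3.47) and 2.53-fold in library 2 (2.28 to 2.82). It exceeded Mir223 by 4.87-fold (4.40 to 5.40) and 3.28-fold (2.92 to 3.69). Mir451a was level with Mir150 in library 1, at a ratio of 1.02 (0.966 to 1.09), and under it in library 2, at 0.449 (0.420 to 0.480). Against these white cell miRNAs, the level of Mir451a was lower in library 2 than in library 1. This restates its log2 ratio of -0.74, which lay under those of Mir142 (-0.41), Mir223 (-0.17) and Mir150 (0.45). The log2 ratios of Mir144 (-0.03) and Mir486 (-0.04) lay above those of Mir142 and Mir223 and under that of Mir150. The point values of Mir144 and Mir486 were thus higher in library 2 against Mir142 and Mir223, and lower against Mir150.

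**Figure D5:**
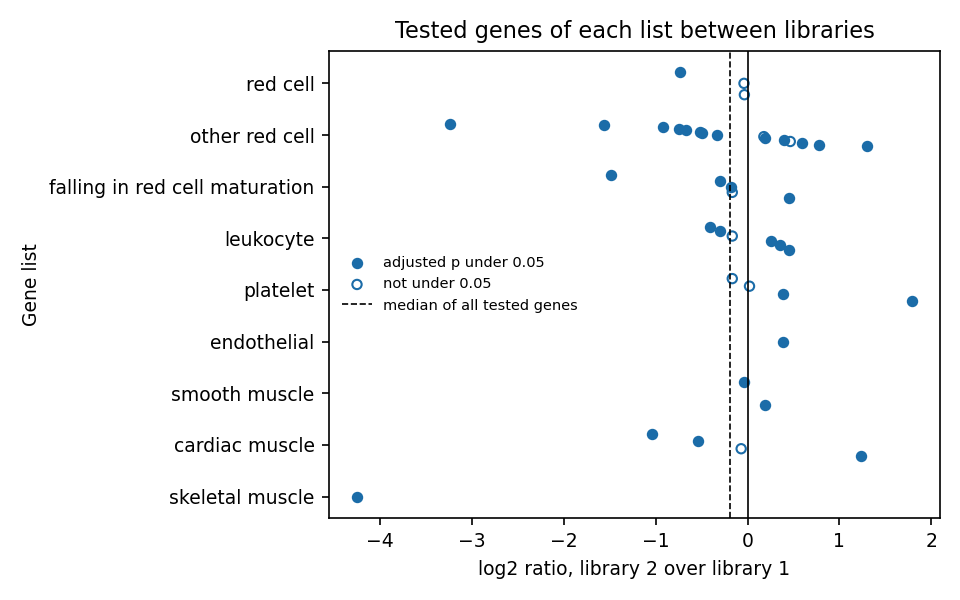
Log2 ratio of library 2 over library 1 for the tested genes of 9 lists (1 row per list, 1 point per gene; filled points passed an adjusted p under 0.05 in the exact test, open points did not), with 0 as a solid line and the median of all tested genes as a dashed line. The 3 red cell genes span -0.74 to -0.03, and the 15 other red cell genes spread from -3.24 to 1.31.

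The tissue's own miRNAs also differed between libraries, and their part in the Mir451a difference was not tested. Mir208a of heart muscle exceeded Mir451a by 6.28-fold in library 1 (6.004 to 6.57) and 5.07-fold in library 2 (4.77 to 5.39), and was itself lower in library 2 (log2 ratio -1.05). Mir499, also carried in a myosin gene, was higher in library 2 (1.23). Mir126a of endothelium exceeded Mir451a by 43.9-fold (42.1 to 45.8) and 95.4-fold (90.2 to 101), and Mir486 by 41.0-fold (39.4 to 42.7) and 55.0-fold (52.7 to 57.4). Mir206, known from skeletal muscle, where miR-486 is also found, had 194 reads in library 1 and 9 in library 2. Mir133b and Mir1b, also on the skeletal muscle list, had 3 and 1 reads and 2 and 4 reads. Any bearing of skeletal muscle on the level of Mir486 was not tested. The platelet list, which holds Mir223, Mir126a, Mir21a and Mir191, took 6.27% and 8.21%. Most of this was Mir126a, the endothelial gene above, at 48924 and 63819 CPM, and Mir21a was at 1776 and 6143 CPM. Of the platelet list's 4 genes, 0 were called higher in library 1, against 36.3% of all tested genes. In library 2, 2 were higher, against 17.7% of all tested genes. With TMM scaling 3 were higher in library 2, Mir191 among them, against 92 of all 344 tested genes.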

How the data were processed

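Reads were counted on mm10 with annotation M21, per the text deposited with the tables. Which aligner and counter ran is not given in the sources used here. Raw whole-number read counts were deposited per miRNA gene in 3 columns with no header, not normalized by the authors. The columns were read from the values as both strands together, sense and antisense. The 4 status rows were kept out of totals. All 2202 identifiers matched M21.

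CPM and exact tests were computed with Python 3.11.15, SciPy 1.17.1 and statsmodels 0.14.6. Log2 ratios had 0.5 added to each count. TMM factors came from edgeR 4.0.16 and size factors from DESeq2 1.42.0. With 1 library against 1, no quasi-likelihood fit was made. Hairpins were folded with RNAfold 2.7.2. The exact test was run on simulated counts that held counting error only, as the test assumes, with 200 genes changed 2-fold. It called 99.0% of changed and 4.03% of unchanged genes. This checks the computation and cannot show how the test behaves on real libraries with further spread. The 3 genes, the lists and the tests were chosen with earlier results of these data known. Genes named are the 3, those opposite or within 10 kb, the 3 above and below in level, the 3 nearest in ratio, and list members at 100 CPM or the highest. Mir101a, Mir182, Mir183, Mir363, Mir96, Mir1a-1, Mir1a-2, Mir133a-1, Mir133a-2, Mir133b, Mir1b and the genes of the pair comparison were named outside that rule.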

Additional observations from a re-analysis of the deposited data

Results flagged for a closer look

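Antisense reads were present at Mir486 above the 3 counts that a count of 0 allows, at 79 in library 1 and 64 in library 2, in a column that no comparison of levels used. They equal the sense reads of the opposite gene Mir3107. Outlying samples and group differences were not examined, as there is 1 group of 2 libraries.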

How the results depend on the processing

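With both strands counted together, mean levels were 0 CPM for Mir451a and Mir486 and 183 for Mir144, which was also the sum, the ratios of Mir451a and Mir486 to Mir144 were 0, and that of Mir486 to Mir451a could not be formed. With all reads as the denominator, means were 331 (Mir451a), 52.7 (Mir144), 439 (Mir486) and 822 (sum). With reads mapped once, Mir144 was at 121 and Mir486 at 1009, and without the most abundant gene Mir144 was at 165, Mir486 at 1374 and the sum at 2578. These shifts follow from the denominators. Leaving out each library, Mir451a ranged from 669 to 1115 CPM, Mir144 from 140 to 143, Mir486 from 1161 to 1193 and the sum from 1970 to 2452. The ratio of Mir451a to Mir144 then ranged from 4.79 to 7.80, that of Mir486 to Mir451a from 1.07 to 1.74 and that of Mir486 to Mir144 from 8.32 to 8.34. The log2 ratio of Mir451a stayed between -0.74 and -0.55 and passed under each alternative that counts it. That of Mir144 turned to 0.15 with TMM (0.155) and DESeq2 scaling (0.155), 0.013 with both strands together and 0.026 with all reads, where Mir486 turned to 0.022. Mir486 was at 0.151 with TMM and 0.150 with DESeq2 scaling. Genes higher in library 1 numbered 80 with either scaling, against 125, and genes past 2-fold numbered 33 of those with 100 or more counts and 105 past 1.5-fold, against 59. No paired analysis was possible because the samples form 1 group.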
